A study of Mus musculus with 24 samples.

Results

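DNA methylation was examined at 44 developmental transcription factor genes in brown adipose tissue (BAT) of infant mice. The genes belonged to the paired box, LIM homeodomain, TALE homeodomain, other homeobox, Sox, forkhead, GATA, AP-2, T-box, basic helix-loop-helix (bHLH) and zinc finger families. They were chosen by name among the genes to which the authors had assigned the fragments of their table, and 9 of them lay on chromosome 1, 32 on chromosome 2 and 3 on chromosome 3. The 44 genes held 1449 of the 65535 fragments of the table, and 595 of the 20225 fragments that could be tested. Of the 44 genes, 43 had a tested fragment, with a median of 12.5 per gene. Pax8, a regulator of thyroid development, had a single fragment that could not be tested. Lmx1b had the most tested fragments, 54.

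All mice were female C57BL/6J pups at postnatal day (PND) 12. Their dams had been gavaged from mid-gestation until shortly after birth with olive oil (VEH) or with DDT in that oil, given as its o,p' and p,p' isomers together. Each group had 12 libraries, and each library was made from a pool of BAT of the female pups of a litter, so that the litter was the replicate. In reduced representation bisulfite sequencing (RRBS), DNA is cut by MspI at CCGG and the short fragments are sequenced after bisulfite conversion, which spares methylated cytosines. The level of a fragment is the percentage of its CpG calls that were methylated, given only for libraries with 10 or more calls there. Testing required such a level in 8 or more libraries of each group.

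Transcription factors of these families specify organs, germ layers and neuron types in the embryo. Most are silent outside the lineages in which they act. Their starts commonly lie in CpG islands, stretches rich in CpG that stay unmethylated in most tissues, and at silent developmental genes such islands are typically held by Polycomb complexes rather than by DNA methylation. Broad unmethylated stretches around such genes have been called DNA methylation valleys. Methylation in bulk tissue is an average over its cells, so a different mixture of cells and a different level within cells cannot be told apart.

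The kinds of fragment at these genes are shown first as sequences, written 5′ to 3′ on the plus strand of GRCm38 with each CpG in capitals. The first 4 carried the differences between the groups with some of the smallest p-values. The next pair had low levels and lay 1209 bp (Prox1) and 62 bp (Pax6) from the gene start, and the last 3 were highly methylated.
Sox2 chr3:34651272-34651325: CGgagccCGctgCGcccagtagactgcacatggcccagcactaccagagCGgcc
Sp5 chr2:70476046-70476095: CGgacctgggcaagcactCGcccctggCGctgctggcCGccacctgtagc
Tfap2c chr2:172550535-172550601: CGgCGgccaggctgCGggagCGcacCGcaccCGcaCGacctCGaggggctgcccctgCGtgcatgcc
Lmx1a chr1:167688734-167688798: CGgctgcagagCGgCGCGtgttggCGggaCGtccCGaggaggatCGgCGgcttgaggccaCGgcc
Prox1 chr1:190169470-190169522: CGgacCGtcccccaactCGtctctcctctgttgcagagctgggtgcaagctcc
Pax6 chr2:105668773-105668835: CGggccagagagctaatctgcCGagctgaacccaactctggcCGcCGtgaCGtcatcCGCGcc
Lhx6 chr2:36091309-36091379: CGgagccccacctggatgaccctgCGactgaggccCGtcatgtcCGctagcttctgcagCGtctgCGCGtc
Shox2 chr3:67096876-67096936: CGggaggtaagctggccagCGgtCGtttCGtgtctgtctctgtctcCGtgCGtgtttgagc
Gata5 chr2:180332379-180332434: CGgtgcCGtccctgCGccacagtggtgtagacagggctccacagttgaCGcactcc

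The Sox2 and Sp5 fragments lay in coding sequence, the Tfap2c fragment in an intron, and the Lmx1a fragment 442 bp upstream of the gene start. The Prox1 fragment was intronic and the Pax6 fragment ended 62 bp upstream of the start. The Pax6 and the Lhx6 fragment each held 7 CpG, and their mean levels in VEH were 1.45% and 66.6%. The Lhx6 fragment was in coding sequence 14098 bp into the gene, the Shox2 fragment 115106 bp upstream of its gene and inside Rsrc1, and the Gata5 fragment in coding sequence.

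The libraries held 8371958 to 13768991 CpG calls in VEH and 9895508 to 14124652 in DDT, of which 219891 to 371654 and 250225 to 394751 were at the 44 genes. DDT replicate 4 had a level at 394 of the 595 tested fragments and DDT replicate 3 at 503. Every VEH library had one at 551 or more. The mean level of DDT replicate 4 outside CpG-rich sequence was 24.7%, that of DDT replicate 12 was 33.5%, and the other libraries lay between 37.8% and 41.6%. These means cover different fragments in each library. Over the 85 such fragments with a level in every library, the 2 means were 26.9% and 26.8%, and the others 29.2% to 31.8%. DDT replicates 4 and 12 stood apart in the same way over all tested fragments, and counts are therefore also given without both of them. Calls from the same molecule or PCR product are not independent, so intervals for single libraries cover counting error only.

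A CpG island was found at most of these genes, but the annotation deposited with the calls did not name it at many. By that annotation, 26 of the 44 genes had a fragment in a CpG island core. Pax6 had 9 CpG-rich fragments by the measure below, but its nearest listed island was 159536 bp away. The islands listed nearest to Alx4, Dlx1 and Pax1 were 235862, 138082 and 145015 bp away. The sequence itself was therefore used as well. A fragment was called CpG-rich where the 500 bp window centred on it had a GC content above 55% and a ratio of observed to expected CpG above 0.65, the usual island criteria. By this measure 40 of the 44 genes had CpG-rich fragments, among them 14 with no listed core. Gata3, Gata5, Pax8 and Tshz2 had neither. Of the CpG-rich fragments of the 44 genes, 47.1% had no island class in the annotation, against 34.9% over the whole table.

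Most CpG-rich fragments of these genes had low methylation in BAT. The median level in VEH over the 336 tested CpG-rich fragments was 4.56%, 265 of them (78.9%) were below 10% and 4 were above 50%. Over the CpG-rich fragments of all other genes the median was 3.84%, and 83.2% were below 10%. The 155 tested fragments in annotated cores had a median of 4.05% and a highest level of 22%, beside a median of 3.70% over all tested core fragments. CpG-rich fragments with no island class in the annotation had a median of 4.67%. Summed per gene, the level of the CpG-rich fragments in VEH had a median of 4.05% over 40 genes, and 37 of them were below 10%. The differences between most neighbours in this order were smaller than the spread between libraries, as the plot of levels by gene shows.

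**Figure D1:**
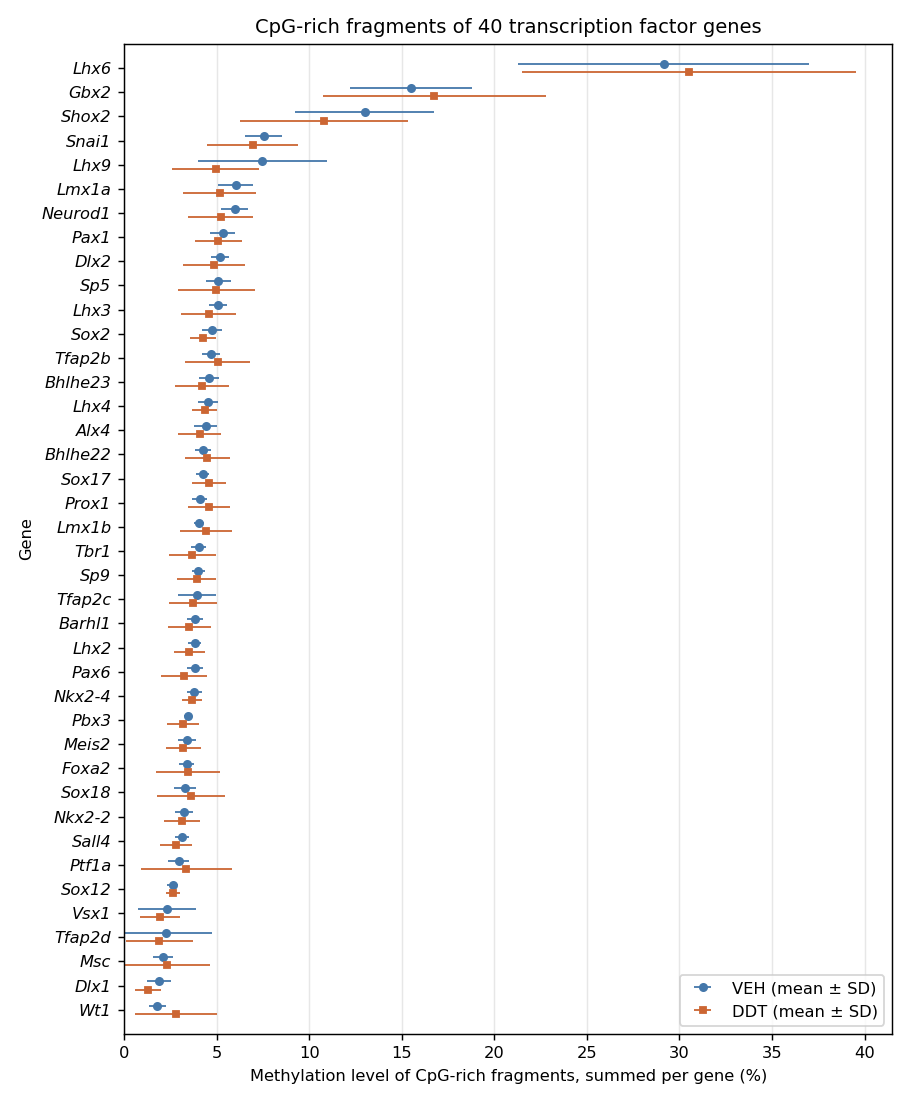
Methylation level (%) of the CpG-rich fragments of each gene, calls summed per gene, as mean ± SD over the VEH libraries (circles) and the DDT libraries (squares), genes ordered by the VEH mean. Lhx6, Gbx2 and Shox2 stand at 29.2%, 15.5% and 13%, and the other 37 genes lie between 1.81% and 7.54%.

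Among the paired box genes, Pax6, which directs development of the eye, pancreas and neural tube, had a CpG-rich level of 3.82% ± 0.441 in VEH (SD, n = 12). Its level in the VEH libraries ran from 3.07% to 4.62% with a median of 3.86%. Of its 25 tested fragments only the pair farthest upstream was above 50%, at 95.6% and 98.7%. Pax1, a gene of the developing vertebral column, stood at 5.32% ± 0.655 (SD, n = 12) and had no tested fragment above 50% among 13.

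The LIM homeodomain genes pattern the nervous system, limb and pituitary. Over their 81 tested CpG-rich fragments the median was 4.74%. Lhx2, needed for the forebrain and eye, was at 3.83% ± 0.345 (SD, n = 12) and Lhx4, a pituitary and motor neuron factor, at 4.54% ± 0.515 (SD, n = 12). In annotated cores Lhx4 had the highest level of the family, 4.29%, and Lhx2 the lowest, 3.40%. Lhx6, a factor of cortical interneurons, was the most methylated of the 44 genes in CpG-rich sequence, at 29.2% ± 7.86 (SD, n = 12). Its libraries spanned 13% to 40.6% with a median of 30.3%. Its fragments fell into separate parts. The fragments within 1 kb of its start had means of 2.75% to 14.9%, whereas the neighbouring pair in coding sequence about 14 kb into the gene, whose first sequence is printed above, had 66.6% ± 3.36 and 75% ± 5.17 (SD, n = 12 each). The summed level thus mixed low and high fragments. Lmx1b, required for dorsal limb and kidney podocytes, was at 4.06% ± 0.276 (SD, n = 12) over 27 fragments and varied little between VEH libraries. In DDT it was at 4.43% ± 1.39 (SD, n = 12).

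Of the TALE homeodomain genes, whose products partner with Hox proteins, Pbx3 had the smallest spread between VEH libraries of all CpG-rich gene levels. It was at 3.44% ± 0.190 (SD, n = 12) over 21 fragments. Meis2 was at 3.40% ± 0.466 (SD, n = 12).

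Among the other homeobox genes, the Prox1 fragment printed above was the lowest fragment outside cores within 5000 bp of any of the starts, at 0.530% ± 0.665 (SD, n = 12). Prox1 specifies lymphatic endothelium. Dlx1 and Dlx2 lie next to each other and act in forebrain interneurons and branchial arches. Their CpG-rich levels were 1.87% ± 0.644 and 5.17% ± 0.498 (SD, n = 12 each). An untranslated exon fragment of Dlx1, which also overlaps its antisense gene Dlx1as, was at 0.922% ± 0.574 (SD, n = 12). Gbx2, which positions the boundary of midbrain and hindbrain, and Shox2, which acts in the limb and the cardiac pacemaker, were the most methylated of the family in CpG-rich sequence. Gbx2 had 15.5% ± 3.28 (SD, n = 12) but only 2 such fragments, and its 3 fragments in annotated cores were at 4.64% ± 0.635 (SD, n = 12). Shox2 had 13% ± 3.75 (SD, n = 12), with VEH libraries from 5.96% to 17.4%. A neighbouring pair of CpG-rich fragments far upstream, including the one printed above, was at 97.8% ± 0.855 and 99.3% ± 0.971 (SD, n = 12 each), whereas those around its start were at 1.37% to 12.6%. In annotated cores the highest and lowest genes of the family were Shox2 at 5.96% and Prox1 at 2.63%.

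The CpG-rich fragments of the Sox genes had a median of 4.24% and a highest level of 20.05%, whereas outside CpG-rich sequence Sox17 had 2 fragments above 50%. Sox2, a factor of pluripotent cells and neural progenitors, was at 4.77% ± 0.531 (SD, n = 12), and Sox12 at 2.62% ± 0.313 (SD, n = 12). Sox17 and Sox18 act in endoderm and in blood and lymph vessels, and their levels were 4.25% ± 0.352 and 3.31% ± 0.588 (SD, n = 12 each). In annotated cores Sox17 was the highest of the family, at 5.26%, and Sox12 the lowest. Foxa2, the forkhead pioneer factor of endoderm and floor plate, stood at 3.38% ± 0.411 (SD, n = 12).

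Among the zinc finger genes, Wt1, a regulator of kidney and gonad that is also expressed in mesothelium, had the lowest level of all 40 genes, 1.81% ± 0.483 (SD, n = 12). In annotated cores Wt1 was again lowest, at 1.47%, and Sp5, a target of Wnt signalling, highest, at 8.91%. That Sp5 level came from 3 fragments, and over its 14 CpG-rich fragments Sp5 was at 5.09% ± 0.675 (SD, n = 12). The core level of Sp5 also varied most between VEH libraries, with an SD of 3.66, followed by Shox2 at 2.43, Sox17 at 1.17, Neurod1 at 1.08 and Snai1 at 0.989. Shox2 rested on 2 core fragments, Sox17 on 3, Neurod1 on 1 and Snai1 on 8, against 20 in Pbx3, with an SD of 0.190. Over both groups, core calls per library went down to 36 in Sp5 and 18 in Shox2, against 3439 in Snai1 and 9440 in Pbx3. The part of depth in this order was not tested. Snai1, which drives epithelial to mesenchymal transition, was at 7.54% ± 0.983 (SD, n = 12) in CpG-rich sequence. An exon about 4 kb into the gene was methylated, with fragments at 90.8% ± 1.02 and 60.96% ± 3.87 (SD, n = 12 each). With Gata5, Vsx1 at 93.5% ± 2.15 (SD, n = 11) and Sall4 at 89.0% ± 1.44 (SD, n = 12), these were the highest fragments outside cores within 5000 bp of a start. Besides those of Prox1 and Dlx1, the lowest were in Sp5 at 0.573% ± 1.22 (SD, n = 10), Sox17 at 0.965% ± 0.719 (SD, n = 12) and Alx4 at 1.22% ± 0.542 (SD, n = 12).

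Tfap2c, the AP-2 factor of trophoblast and germ cells, and Tfap2b, that of neural crest and kidney, were at 3.96% ± 1.03 and 4.71% ± 0.497 (SD, n = 12 each). Of the bHLH genes, Neurod1, a factor of neurons and endocrine pancreas, was highest at 5.98% ± 0.732 and Msc, expressed in early muscle precursors, lowest at 2.11% ± 0.553 (SD, n = 12 each). In cores Bhlhe23 was highest, at 4.59%, and Ptf1a, a factor of the exocrine pancreas, lowest, at 2.77%. Tbr1, the T-box factor of cortical neurons, was at 4.04% ± 0.413 (SD, n = 12). No CpG-rich fragment was assigned to the GATA genes, although low fragments assigned to other genes lay around both starts, as described with the runs. Gata5 had 2 tested fragments, at 94.0% ± 1.81 and 87.5% ± 3.20 (SD, n = 12 each), and the coding fragments of Gata3 were at 77.3% ± 9.05 (SD, n = 11) and 93.5% ± 2.12 (SD, n = 12). Tshz2 had tested fragments only far inside the gene, with a median of 75.1%.

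The level of a CpG-rich fragment moved with its length and its number of calls. The 57 such fragments of more than 100 bp had a median of 11.9% in VEH, those of 51 to 70 bp had 3.20%, and those of 30 to 50 bp had 4.29%. The same classes of the other genes gave 10.2%, 2.98% and 3.46%. The long fragments had a median of 128.5 calls per library and those of 30 to 50 bp a median of 847. Of the 10 member core fragments with the highest levels, 8 were longer than 90 bp, against 32 of all 155. These were led by a pair in Lmx1b at 22% ± 5.0 and 21.3% ± 10.6 (SD, n = 12 each), a coding fragment of Snai1 at 20.7% ± 8.67 (SD, n = 12), 1 upstream of Sox2 at 20.05% ± 10.8 (SD, n = 8) and 1 at the start of Bhlhe23 at 19.8% ± 9.26 (SD, n = 12). The spreads of these 5 overlapped, and their order is therefore not firm. The others, in Sox17, Snai1, Nkx2-4, Sp5 and Sox12, lay between 13.8% and 19.3%. The part of fragment length and depth in these levels was not tested.

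Methylation lower than at other genes extended beyond the CpG-rich sequence of the 44 genes. Outside CpG-rich windows the median level in VEH was 22.9% over 259 fragments of the 44 genes, against 71.2% over those of all other genes. The gap depended on distance. Within 1 kb of the start the medians were 9.57% and 8.78%. At 2 to 5 kb they were 16.4% and 53.4%, at 5 to 10 kb 12.7% and 75.2%, and at 10 to 50 kb 53.2% and 77.4%. Beyond 50 kb the order was lost, with 83.8% and 82.1%. In every one of the 24 libraries the median between 2 and 10 kb was lower at the 44 genes than at the others. The sequence differed as well, since the median CpG ratio at 2 to 5 kb was 0.559 at these genes and 0.369 at the others. Between 2 and 10 kb, the 3 member fragments with a ratio up to 0.3 had a median of 86.97%, against 76.6% at the other genes. With a ratio of 0.3 to 0.4 the medians were 48.0% (11 fragments) and 80.2% (331), and with 0.4 to 0.5 they were 18.1% (19) and 67.57% (222). With 0.5 to 0.65 they were 11.9% (43) and 12.9% (255), and above 0.65 they were 6.79% (12) and 53.9% (58). The median was thus lower at the 44 genes in each class above 0.3, by the least at 0.5 to 0.65, and higher in the class below. Over the 595 fragments the CpG ratio and the VEH level had a Spearman rho of -0.62, and over all tested fragments -0.71. These are descriptions, since the fragments share libraries and depth.

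**Figure D2:**
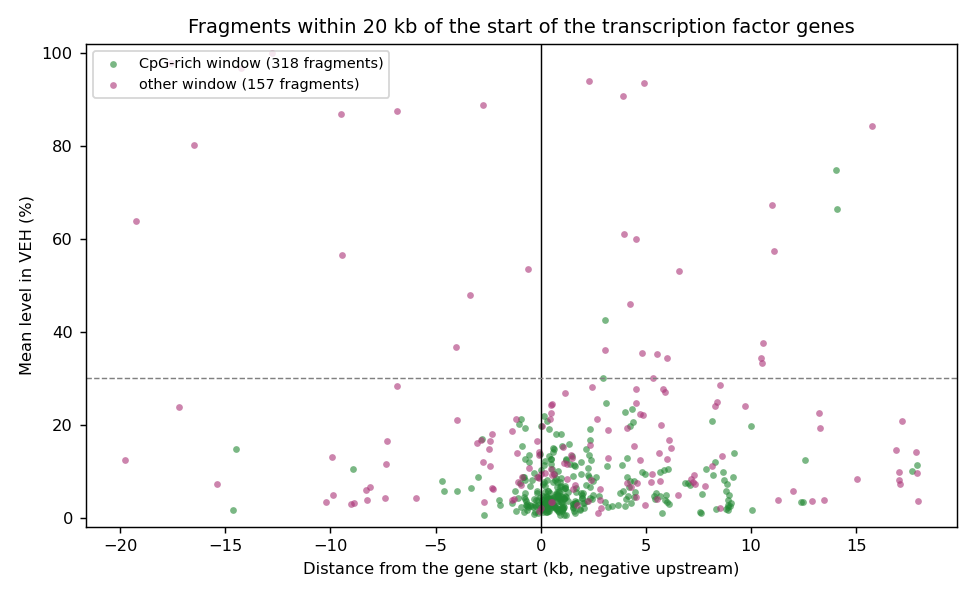
Mean VEH level (%) of each tested fragment within 20 kb of the start of its gene, against its distance from the start in kb (negative upstream), CpG-rich fragments in green and others in purple, with a dashed line at 30%. Most fragments lie below the line on both sides of the start, and the CpG-rich fragments at 66.6% and 75% are those of Lhx6.

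Low fragments were joined into runs, starting from the tested fragment nearest to a gene start (within 1000 bp) and extended while each next fragment was below 30% in VEH and no more than 5000 bp away. Fragments were taken from whichever gene they had been assigned to. Of the 44 genes, 38 had a tested fragment that near, and in all 38 it was below 30%. Their runs had a median length of 4286.5 bp and a median of 10 fragments. At the other genes, 1988 of 2117 had a run, with a median of 515 bp and 5 fragments. Runs over 5 kb were found at 14 of the 38 genes (36.8%) and at 2.62% of the others. With the limit at 20% the medians were 3115 and 498 bp, and at 50% 4600 and 519 bp. A further 34 developmental transcription factor genes of the same chromosomes gave 24 runs with a median of 1978 bp. Of these 24 runs, 6 (25%) were over 5 kb, so long runs were not particular to the 44 genes.

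The longest run, of 17347 bp and 27 fragments at chr2:71529407-71546753, joined Dlx2 to Dlx1. The next, of 16516 bp and 19 fragments at chr2:9881110-9897625, surrounded the start of Gata3, which restrains fat cell differentiation and guides T cells. The tested fragments assigned to Gata3 itself, all methylated, lay outside this run, and so its levels by gene and by position differ. The same held for Gata5, a heart and gut factor, whose start lay in a run of 1023 bp and 11 fragments at chr2:180333816-180334838 that held neither of its own tested fragments. Gbx2 followed with 14860 bp at chr1:89927505-89942364 and Barhl1, a gene of inner ear hair cells, with 9587 bp. Runs of 5 to 7 kb were found at Sp9, Pax1, Pax6, Prox1, Lhx4, Alx4, Sox17, Sp5, Lmx1b and Neurod1. The shortest were those of Lhx9, a gonad factor, with 52 bp and 1 fragment, and of Vsx1, a retinal factor, with 125 bp and 2 fragments. The number of fragments that MspI yields limits how long a run can be measured.

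**Figure D3:**
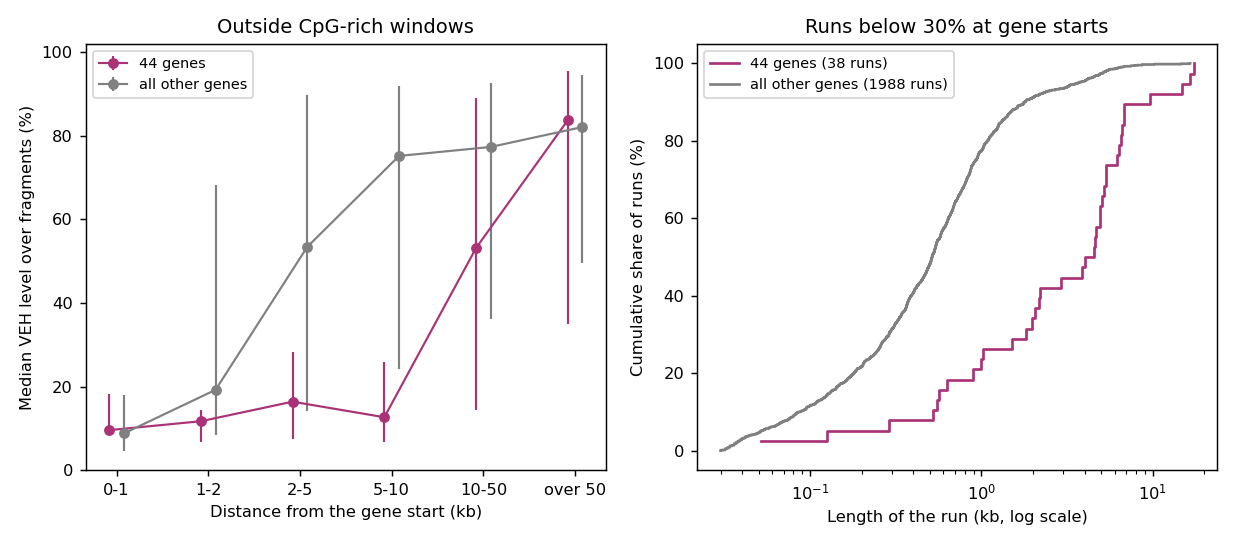
Left, median VEH level (%) of fragments outside CpG-rich windows by distance from the gene start (kb), with bars from the lower to the upper quartile, for the 44 genes and all other genes. Right, cumulative share (%) of runs below 30% by their length (kb, log scale). The medians part at 2 to 10 kb and meet beyond 50 kb, and the runs of the 38 genes are longer, with a median of 4286.5 against 515 bp.

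The runs were nearly the same in the exposed litters. With DDT means in place of VEH means, 34 of the 38 runs had the same ends and the median length was again 4286.5 bp. Those of Pax6 (6572 to 9198 bp) and Lmx1a (2055 to 3846 bp) were longer in DDT, and those of Gata3 (16516 to 14536 bp) and Alx4 (6164 to 5232 bp) shorter. Without DDT replicates 4 and 12, 35 had the same ends. These run lengths come from group means and were not tested.

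The main comparison asked whether perinatal DDT altered methylation at these genes. No fragment passed. The F test, with Benjamini-Hochberg adjustment over all 20225 fragments, called 0 of the 595 fragments at an adjusted p under 0.05, with a smallest adjusted p of 0.869, and 0% of all fragments. A quasi-binomial regression and limma also called 0. At an unadjusted p under 0.05 the F test gave 27 fragments (4.54%), beside a background of 4.18% over all fragments. The quasi-binomial regression gave 56 (9.41%, its own background 7.72%) and limma 20 (3.36%, its own background 3.51%). Of the 27, 21 were lower in DDT (3.53%, background 2.93%) and 6 higher (1.01%, background 1.25%). These shares were near the background. The 27 fragments lay in 21 genes. Without DDT replicates 4 and 12 there were 25 (4.36%, background 4.51%), of which 15 were lower.

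The differences were small. The median difference, DDT minus VEH, was -0.225 percentage points over the 595 fragments and -0.163 over all. It ranged from -10.8 to 15.4, and 441 fragments differed by less than 2 points. The mean was lower in DDT at 353 fragments (59.3%), and at 56.9% of all fragments. Without DDT replicates 4 and 12 these shares were 49.7% and 49%, and the median difference was 0.00654 points. Without DDT replicate 3 instead, the library with the highest mean in CpG-rich sequence of these genes (9.34%), they were 63.7% and 59.7%. The size and sign of the shift thus depended on which libraries were kept. The median SD between libraries was 2.37 points in VEH and 3.62 in DDT. Only 3 fragments differed by more than 10 points, in Lmx1b, Lhx9 and Lmx1a, and they are named after their values were seen. That of Lmx1b, in an intron, had a VEH mean of 36.8% ± 21.7 (SD, n = 9) and a DDT mean of 52.3% ± 15.9 (SD, n = 8). The SD in VEH exceeded the difference.

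**Figure D4:**
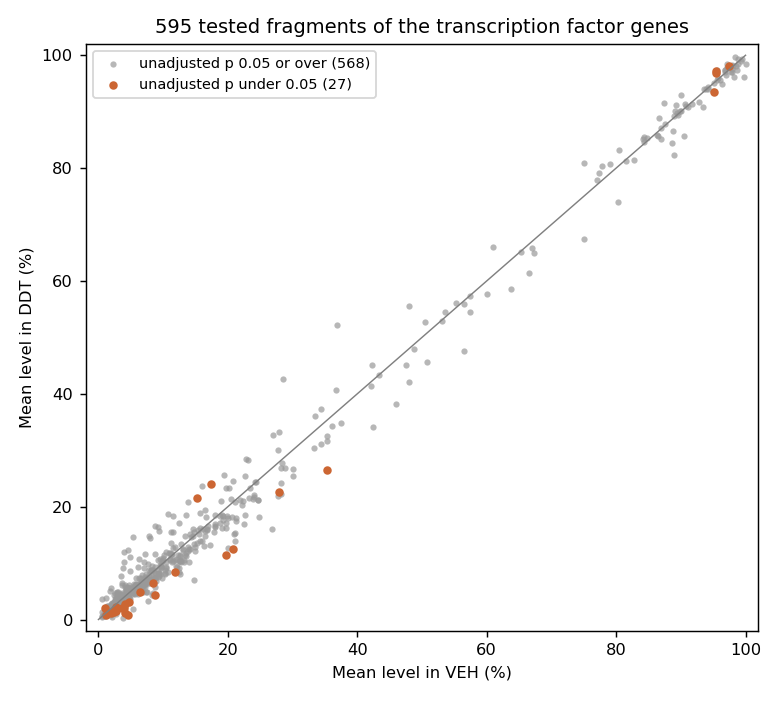
Mean level (%) in DDT against mean level (%) in VEH for the 595 tested fragments, with the line of equality with orange marking the 27 whose unadjusted p was under 0.05. The points follow the line over the whole range, and 441 of them differ by less than 2 points.

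By family, an unadjusted p under 0.05 was found for 4 of 38 fragments in the paired box genes (10.5%), divided between Pax6 and Pax1 and all lower in DDT, beside the background of 4.18% over all fragments and 2.93% lower in DDT. It was found for 2 of 15 in the forkhead gene (13.3%), 4 of 52 in the Sox genes (7.69%), 2 of 29 in the AP-2 genes (6.90%) and 2 of 32 in the TALE homeodomain genes (6.25%). The shares were below the background in the zinc finger genes with 3 of 82 (3.66%), the other homeobox genes with 5 of 150 (3.33%), the bHLH genes with 1 of 30 (3.33%) and the LIM homeodomain genes with 4 of 155 (2.58%). The GATA and T-box genes had 0 of 4 and 0 of 8. Each of the higher shares rested on 2 to 4 fragments. No test was made between families.

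The smallest p belonged to the Sox2 fragment printed above, in coding sequence 1319 bp into the gene, which also lies within the non-coding gene Sox2ot. Its levels in VEH ran from 2.08% to 5.34% with a median of 3.79%. In DDT they ran from 0% to 4.10% with a median of 2.09%, and the 0%, from 924 calls, allows up to 0.325%. In DDT 11 of 12 libraries were below the VEH median and 6 were below every VEH library. The means were 3.66% ± 0.912 and 2.03% ± 1.22 (SD, n = 12 each), with a permutation p of 0.00128, an F test p of 0.00119 and an adjusted p of 0.869. It did not pass.

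The Sp5 fragment had VEH levels from 3.12% to 5.62% with a median of 4.81%, and DDT levels from 0.0850% to 5.77% with a median of 3.17%. The DDT library at 5.77%, replicate 2, was above every VEH library, and 11 of 12 were below the VEH median. The means were 4.65% ± 0.763 and 3.12% ± 1.30 (SD, n = 12 each), with a permutation p of 0.00142 and an adjusted p of 0.869. The Tfap2c fragment had VEH levels from 1.29% to 5.57% and DDT levels from 0.0325% to 2.64%, so that the groups overlapped. Its means were 2.33% ± 1.21 and 1.25% ± 0.638 (SD, n = 12 each), with a permutation p of 0.00324 and an adjusted p of 0.869. In both fragments the lowest DDT library was replicate 4.

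Larger differences came with larger spread. The intronic fragment of Meis2 at chr2:116060331-116060381 was at 20.6% to 48.8% in VEH and 16.7% to 34.1% in DDT, with means of 35.3% ± 8.73 (SD, n = 12) and 26.6% ± 6.43 (SD, n = 11, without DDT replicate 4, which had 3 calls) and a permutation p of 0.0146. The coding fragment of Snai1 at chr2:167538332-167538475 was at 9.62% to 42.9% in VEH and 0% to 21.2% in DDT, where the 0% of replicate 4 allows up to 0.728%. Its means were 20.7% ± 8.67 and 12.5% ± 6.35 (SD, n = 12 each), with a permutation p of 0.0088. The fragment of Foxa2 at the start of the gene, in untranslated sequence at chr2:148046913-148047040, was at 4.35% to 37.0% in VEH and 4.55% to 20.8% in DDT, with means of 19.7% ± 9.77 (SD, n = 12) and 11.5% ± 4.67 (SD, n = 11, again without DDT replicate 4) and a permutation p of 0.0147. In each of these 3 fragments the groups overlapped, and the adjusted p was 0.869.

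Of the 10 fragments with the smallest p, 2 were higher in DDT. The intronic fragment of Prox1 at chr1:190169600-190169654 was at 0% to 21.4% in VEH and 14.7% to 35.7% in DDT. The VEH library at 0% had 17 calls, which allows up to 17.6%. The means were 15.3% ± 5.85 and 21.5% ± 5.82 (SD, n = 12 each), with a permutation p of 0.00878. In an exon far inside Pbx3, at chr2:34172875-34172910, VEH was at 94.1% to 96.7% and DDT at 95% to 100%. The DDT libraries at 100% were replicates 4 and 12. The means were 95.4% ± 0.936 and 96.9% ± 1.76 (SD, n = 12 each), with a permutation p of 0.0132.

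The Lmx1a fragment upstream of the start was at 1.46% to 3.61% in VEH and 0% to 3.72% in DDT, with means of 2.51% ± 0.678 and 1.73% ± 0.835 (SD, n = 12 each) and a permutation p of 0.0185. An intronic fragment of Shox2, at chr3:66980868-66980980, was at 0% to 13.5% in VEH and 0% to 5.0% in DDT, with means of 4.64% ± 4.70 and 0.882% ± 1.74 (SD, n = 11 each, as VEH replicate 2 and DDT replicate 10 had too few calls) and a permutation p of 0.0225. Of its libraries, 8 of DDT and 4 of VEH were at 0% on 12 to 97 calls, which allows up to 25% in the shallowest. All 10 had an adjusted p of 0.869. Their calls per library ran from 12 in Shox2 to 4441 in Lmx1a.

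**Figure D5:**
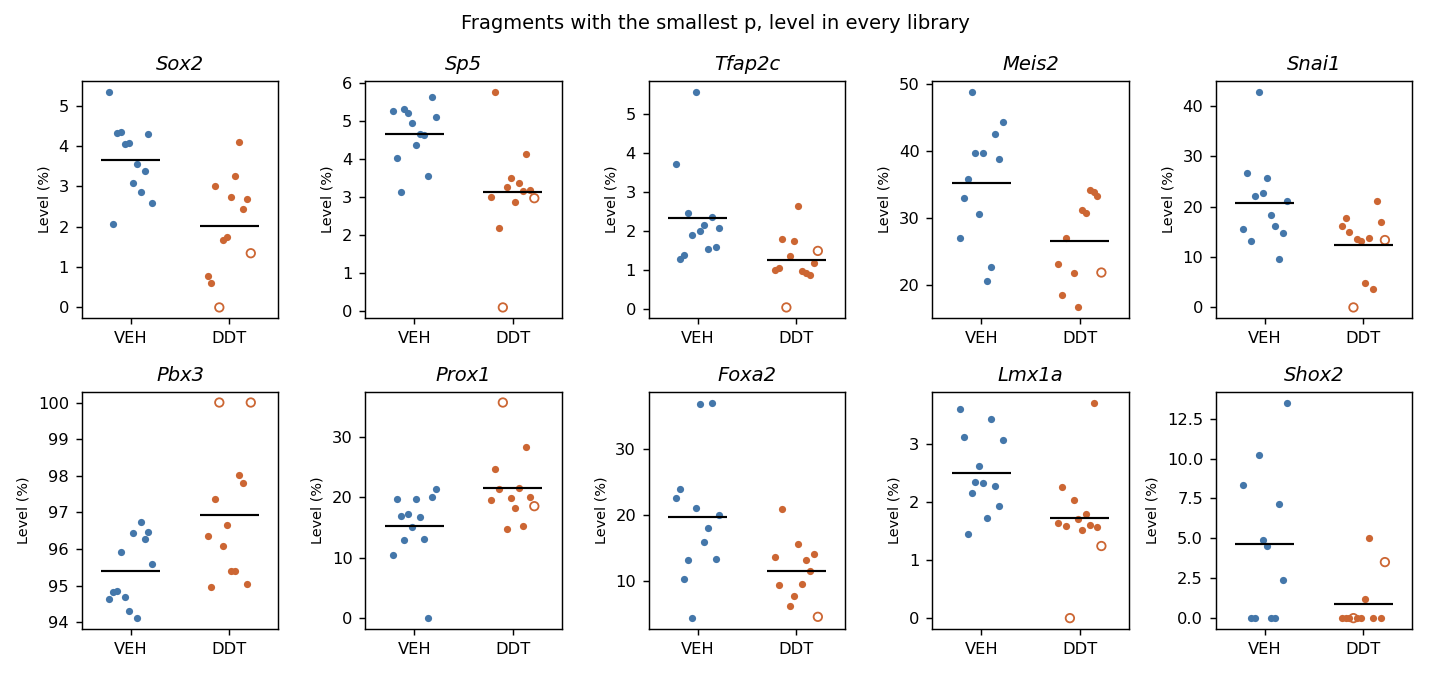
Methylation level (%) in every library for the 10 fragments with the smallest p, VEH in blue and DDT in orange, with DDT replicates 4 and 12 as open circles and group means as bars (each panel has its own scale). The groups overlap in every panel, and Pbx3 and Prox1 are the panels in which the DDT mean is higher.

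No single library decided whether the unadjusted p of these 10 fragments lay under 0.05. Without DDT replicates 4 and 12 together, the F test p rose to 0.0545 for Pbx3 and 0.0648 for Lmx1a. The limma p was 0.0559 for Pbx3, 0.0832 for Lmx1a and 0.0855 for Shox2, and the quasi-binomial p for Shox2 was 0.1496. Of the 595 fragments, 137 lay inside another gene as well and 47 over an exon of one, and their levels belong to both.

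Summing the calls per gene gave the same picture with more calls behind each value. Over annotated cores, the F test called 0 of 25 genes at an adjusted p under 0.05, as did the quasi-binomial regression and limma, and 0 at an unadjusted p, against a background of 2.33% of 1288 genes. The core level of Sox2, for example, was 4.77% ± 0.531 in VEH and 4.25% ± 0.707 in DDT (SD, n = 12 each), with an unadjusted F test p of 0.0547. Over CpG-rich windows, 0 of 40 genes were called at an adjusted p under 0.05, and 1 at an unadjusted p, against a background of 3.14% of 1815 genes. This was Dlx1, at 1.87% ± 0.644 in VEH and 1.29% ± 0.714 in DDT (SD, n = 12 each), with an adjusted F test p of 0.886. Lhx6, the highest gene, was at 29.2% ± 7.86 and 30.5% ± 9.02 (SD, n = 12 each), closer than the spread between libraries. The unadjusted counts are read only against their background.

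The further list of developmental transcription factors had 442 tested fragments in 31 of its 34 genes. The F test called 0 of them at an adjusted p under 0.05 and 15 at an unadjusted p (3.39%, background 4.18%), of which 11 were lower in DDT (2.49%, background 2.93%). Genes that mark cell types were examined as well. Fragments within 5000 bp of the adipocyte genes Fabp4, Fabp5, Acadl and Pck1 had a median VEH level of 1.46% over 7 fragments. Pck1 was an exception, at 72.6%. Cd2, a T cell gene and the only tested gene of the blood list, had a median of 66.8%, 4 of 5 muscle genes had 31.9%, and Snap25, the only tested neural gene, had 1.57%. In DDT these medians were 3.47%, 65.3%, 31.4% and 1.64%. The neural gene was thus as low as the adipocyte list, and these levels check neither the tissue nor its cell mixture.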

How the data were processed

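Per the labels and the study's methods, the authors trimmed the reads with Scythe and Sickle, aligned them to GRCm38 with Bismark 0.15.0 and Bowtie2, and deposited counts of methylated and not methylated CpG calls per MspI fragment and library, without normalization. They also deposited an annotation that assigned each fragment to a gene, with a distance from its start and a CpG island class. Its release is not given in the sources used here. The table analysed ended at position 136670346 of chromosome 3, and other chromosomes were not analysed here. All 65535 fragments began at an MspI site of GRCm38.

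The level was the percentage of methylated calls (at least 10 calls per library, at least 8 libraries per group). Groups were compared with the ANOVA F test of the study's statistics section, fitted over all 20225 tested fragments or all genes and p-values were adjusted by Benjamini-Hochberg, with 0.05 as the threshold. The study itself tested regions with a differential methylation package and reported differentially methylated genes in DDT-exposed infants. That analysis was not repeated here, and the table covered only part of the genome, so the counts are not directly comparable. For single fragments a two-sided permutation test (100000 resamples) was added. Medians over the 44 genes have no test. Alternatives were a quasi-binomial regression, limma on log2((methylated + 1) / (not methylated + 1)), minimums of 5 and 20 calls, a block for the replicate number, levels in all 24 libraries, total calls as a covariate, and leaving out libraries. Intervals are 95% Wilson intervals, and 0% was given the upper limit of 3 calls of the total.

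The 44 genes, the families and the further list were chosen with earlier results of these data known. CpG-rich windows, runs, length classes and the counts of single high libraries were added after the data were seen. Values were given for the 10 fragments with the smallest p, the 10 highest core fragments, the highest and lowest core gene of each family, the 5 genes whose core level varied most, and the 5 highest and 5 lowest fragments outside cores within 5000 bp of the start. Genes named beyond that rule serve as examples of their family. The tests were tried on simulated calls. No pair of libraries shared identical calls at more than 0.117% of fragments with at least 50 calls in both. The start and strand were checked in GENCODE M21, where the strand matched for 44 genes and the start differed by over 1000 bp for 2. Software was limma 3.58.1 under R 4.3.3, and SciPy 1.17.1, pandas 2.3.3, NumPy 2.4.6 and matplotlib 3.10.9 under Python 3.11.15.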

Additional observations from a re-analysis of the deposited data

Results flagged for a closer look

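In a pair of fragments, a DDT library lay far from the others of its group, by the gap between it and its nearest neighbour as a share of the range (Dixon's 95% critical value). Of the named fragments, 7 groups had 4 to 10 libraries and could be examined. The critical value assumes normally distributed levels, for which chance gives about 1 such group in 20. In the intron of Lmx1b at chr2:33640088-33640180, DDT replicate 4 was at 47.8% (89 of 186 calls, 95% Wilson interval 40.8% to 55%), the other 8 DDT libraries with a level at 6.45% to 25.8%, and the VEH libraries at 4.76% to 41.7%. In Sp5 at chr2:70475858-70476045, DDT replicate 8 was at 10.3% (3 of 29 calls, interval 3.58% to 26.4%), all other DDT libraries at 0% and the VEH libraries at 0% to 3.23%. With all other DDT libraries at 0%, any single library above 0% would have been flagged, so that rate does not hold there. The unadjusted F test p was 0.476 for the Lmx1b and 0.565 for the Sp5 fragment.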

How the results depend on the processing

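The count of 0 member fragments and of 0 member genes at an adjusted p under 0.05, in cores and in CpG-rich windows, held under every alternative run. The 27 member fragments at an unadjusted p became 56 (9.41%) with the quasi-binomial regression, which gave a background of 7.72%. With a level required in all 24 libraries there were 16 of 333 tested member fragments (4.8%, background 4.24%). Leaving out each library in turn gave 20 (3.38%, background 3.7%, without VEH replicate 12) to 34 (5.81%, background 4.41%, without DDT replicate 2). The labels give replicate numbers but state no pairing of samples. The deviations of same-numbered libraries had correlations of -0.18 to 0.199, and 3 of 12 pairs were over 0.1. Such correlations cannot show whether same-numbered libraries were handled together. With the replicate number as a block, 25 fragments (4.2%, background 4.13%) had an unadjusted p under 0.05 and 0 an adjusted one. The median VEH level of core fragments, 4.05%, was 3.60% with a level in all 24 libraries and 3.94% to 4.10% with a library left out. The median difference of -0.225 points was 0.00654 without DDT replicates 4 and 12, where its sign was reversed, and -0.280 to -0.0897 with a library left out, the latter without DDT replicate 4. The 10 fragments with the smallest p kept their direction under every alternative run for them, with adjusted p-values from 0.382 to 0.949. The unadjusted p of the Shox2 fragment was also over 0.05 with a minimum of 20 calls (0.0788) and with the block (0.0580), as was that of Prox1 with the block (0.0506). The causes were not tested. Depth limits the fragments with few calls, such as that of Shox2.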

Other observations

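At 18 of the 595 fragments a single library was above 50% while every other library was below 30%. The single library was DDT replicate 4 at 9 of them, DDT replicate 3 at 4, DDT replicate 2 at 2, and DDT replicate 5, DDT replicate 10 and VEH replicate 8 at 1 each. Over all tested fragments, 449 had this pattern, 210 of them in DDT replicate 4 and 108 in DDT replicate 3.

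Several of these fragments were covered by many calls. A fragment of Tfap2b at chr1:19209992-19210029 was at 100% in DDT replicate 4 (263 of 263 calls, 95% Wilson interval 98.6% to 100%) and at most 5.68% in any other library. A fragment of Gbx2 at chr1:89932743-89932798 was at 98.8% (563 calls, interval 97.5% to 99.4%) against at most 13.4%, and 1 of Sp5 at chr2:70476523-70476567 at 63.4% (882 calls, interval 60.1% to 66.5%) against at most 8.26%. In Lmx1b at chr2:33640674-33640716 the library was at 89.3% (429 calls, interval 86.0% to 91.9%) and the others at 17.02% or less. The same library was at or near 0% in the fragments of Sox2, Snai1 and Lmx1a described above. In DDT replicate 3, a fragment of Sox12 at chr2:152406292-152406358 was at 75.7% (103 calls, interval 66.6% to 83.0%) against at most 9.17%. The cause was not tested. The promoters listed by RefSeq for 35 of the 44 genes (GRCm38, 250 bp before to 50 bp after the start) had a median of 16.5 CpG, against 7 over all promoters of the same chromosomes, and 76.1% of them held CCGG, the letters MspI cuts and the same on both strands, against 52.0%.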
